A study of Mus musculus with 16 samples.

Results

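The 10 genes described here encode transcription factors that set the fate of CD8 T cells: Tbx21 (T-bet), Eomes, Id2 and Prdm1 (BLIMP1) on the effector side, Tox in exhaustion, and Tcf7 (TCF1), Foxo1, Id3, Bach2 and Bcl6 on the memory and stem-like side. They were picked by gene symbol from a count table of 24028 genes, all 10 were present, and all 10 passed the filter on low counts, which kept 17414 genes. The cells were sorted as CD8 T cells from orthotopic tumours in BALB/c mice, grown from TS/A, a murine line of mammary adenocarcinoma. ENT, the HDAC inhibitor entinostat, or vehicle was given daily at 20 mg/kg of drug from day 7 after tumour injection. The 4 groups, of 4 libraries each, were sequenced: ENT at day 10, ENT at day 17, vehicle at day 10 and vehicle at day 17, so ENT had been given for 3 or 10 days. All groups share the strain, the tumour line and the sort for live CD45.2+ CD8+ CD4- cells, a gate that does not ask for a T cell receptor. The labels do not tie the libraries to mice, so the p-values speak of the spread among these libraries alone, which may be technical.

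T-bet and EOMES are related T-box factors: T-bet drives effector genes such as those of granzymes and interferon gamma, and EOMES is used both by memory cells and by exhausted cells. ID2 and ID3 bind no DNA themselves. They hold back E proteins, activators that bind the E-box, and in CD8 T cells Id2 is linked to short-lived effectors while Id3 marks memory precursors. BLIMP1 is a repressor that promotes terminal differentiation, and it is opposed by BCL6 and BACH2, repressors that preserve memory potential. TCF1, a partner of beta-catenin, keeps the stem-like pool that feeds the response in tumours, FOXO1 maintains genes of quiescence and homing, and TOX installs the exhausted state in chronically stimulated cells.

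Upstream sequences are shown for 2 effector factors and 2 memory factors whose transcripts moved in opposite directions with ENT at day 17. Id2 and Prdm1 were higher, and Id3 and Bcl6 were lower. Each is the 250 bases before a RefSeq transcription start on the GRCm38 build, given 5′ to 3′ in the sense of the gene, with every E-box (CANNTG, the same on both strands) in capitals. The Id2 window is chr12:25096093-25096342, minus strand, that of Id3 is chr4:136143572-136143821, plus strand, that of Prdm1 is chr10:44458749-44458998, minus strand, and that of Bcl6, at the more upstream of its 2 listed starts, is chr16:23988853-23989102, minus strand. By the gene coordinates given below (GENCODE), the Id2, Id3 and Prdm1 windows lie inside their genes. Other annotated starts of these genes therefore lie further upstream.
Id2: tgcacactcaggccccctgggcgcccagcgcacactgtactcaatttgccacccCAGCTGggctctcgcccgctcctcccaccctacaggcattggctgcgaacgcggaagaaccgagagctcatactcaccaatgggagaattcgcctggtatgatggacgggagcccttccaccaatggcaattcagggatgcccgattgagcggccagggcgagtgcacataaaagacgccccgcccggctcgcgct
Id3: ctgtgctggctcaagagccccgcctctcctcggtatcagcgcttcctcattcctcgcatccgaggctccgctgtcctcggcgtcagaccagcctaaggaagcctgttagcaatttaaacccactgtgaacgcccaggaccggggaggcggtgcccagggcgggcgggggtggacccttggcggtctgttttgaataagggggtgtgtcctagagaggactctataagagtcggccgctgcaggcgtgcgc
Prdm1: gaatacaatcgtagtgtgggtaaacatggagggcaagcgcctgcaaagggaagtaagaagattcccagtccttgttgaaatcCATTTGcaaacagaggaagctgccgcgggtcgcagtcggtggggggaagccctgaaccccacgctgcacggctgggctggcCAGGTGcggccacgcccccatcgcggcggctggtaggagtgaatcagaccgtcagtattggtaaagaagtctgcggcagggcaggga
Bcl6: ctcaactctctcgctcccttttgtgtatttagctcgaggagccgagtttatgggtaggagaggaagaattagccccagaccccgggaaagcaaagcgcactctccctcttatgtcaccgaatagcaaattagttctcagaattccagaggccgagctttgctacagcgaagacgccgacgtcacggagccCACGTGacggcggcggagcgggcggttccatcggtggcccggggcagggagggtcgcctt

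RefSeq listed 11 such windows for 9 of the 10 genes, with Tox the one not matched. The Bach2 window and 1 of the 2 Tcf7 windows also lie inside their genes. An E-box stood in 6 of the 11 windows, against 66.2% of the 32851 windows of all genes. The Prdm1 window held 2 E-boxes, the Id2, Tbx21, Foxo1 and 1 of the 2 Tcf7 windows held 1 each, and the Id3, Bach2 and Eomes windows held none. The downstream Bcl6 window also held none, where the upstream one printed here held 1. Prdm1 was also the only one of the 11 with the FOXO letters GTAAACA, which 3.17% of all windows hold on either strand, and with the BACH letters TGANTCA, which 6.75% hold. The TCF letters CTTTGAT, the T-box letters GGTGTGA and the BLIMP1 letters GAAAGTG were in none of the 11 and in 3.21%, 3.33% and 4.01% of all windows. A match describes letters, not a bound site.

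Levels are compared between genes as RPKM, the CPM (counts scaled to library size) per kilobase of exon, with exon lengths from GENCODE on GRCm38. Averaged over the 16 libraries, Tcf7 (168 RPKM), Id2 (122) and Tbx21 (74.5) were the most abundant of the 10, followed by Foxo1 (32.3), Prdm1 (21.6), Eomes (20.9), Tox (16.2), Id3 (12.4), Bach2 (8.29) and Bcl6 (6.61). This order was not the same in every group. Tcf7 exceeded Id2 in 12 of 16 libraries, the exceptions being the 4 libraries of ENT at day 17, where Id2 averaged 172 ± 49.6 RPKM and Tcf7 132 ± 21.8. Foxo1 exceeded Prdm1 in 13 of 16 libraries, but in 1 of the 4 with ENT at day 17. Prdm1 and Eomes had no fixed order: Prdm1 was the higher in 3 and 4 of the ENT libraries at day 10 and day 17 and in none of the 8 vehicle libraries. Tox and Eomes, Tox and Id3, and Id3 and Bach2 also changed places between libraries, with the first-ranked gene ahead in 12, 13 and 13 of 16. Tbx21 lay below Id2 and above Foxo1 in all 16.

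**Figure D1:**
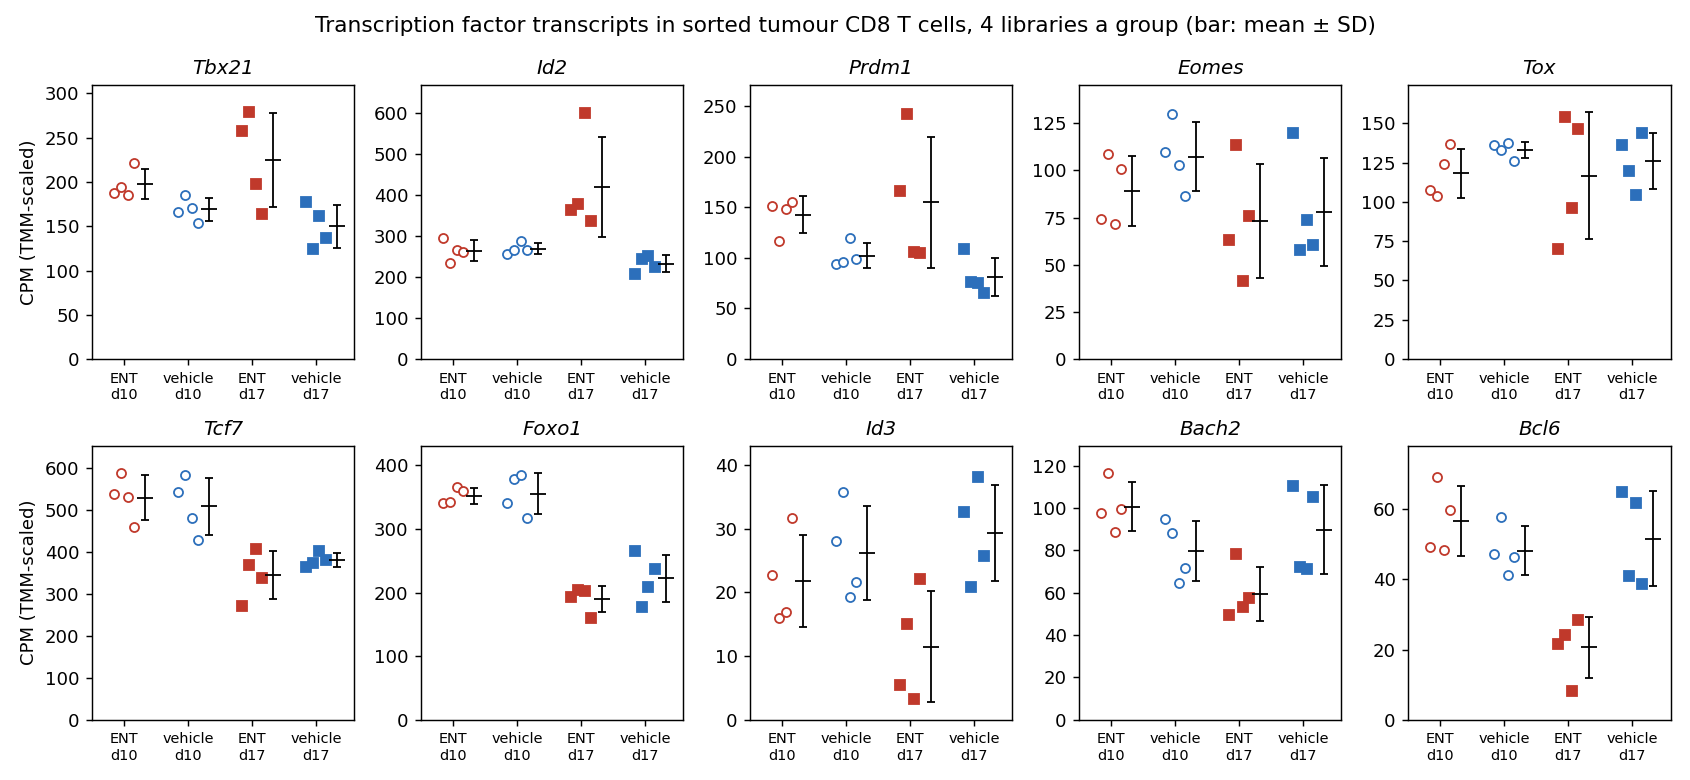
TMM-scaled CPM of the 10 genes in each library, with a point for each library and a black bar for the mean ± SD of 4; open circles are day 10, filled squares day 17, red ENT and blue vehicle. Id2 at day 17 lies between 337 and 599 CPM with ENT and between 208 and 252 CPM with vehicle, and Bcl6 between 8.29 and 28.5 CPM with ENT and between 38.8 and 64.8 CPM with vehicle.

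Library totals were 554593 to 3530961 counts for ENT and 2842099 to 6975904 for vehicle at day 17, and 2639019 to 5709243 for ENT and 3640768 to 4227704 for vehicle at day 10. The shallowest, ENT day 17 replicate 3, had the highest Id2 and Tcf7 of its group and the lowest Eomes, Id3 (2 counts) and Bcl6 (5 counts). The 7 measured CD8 T cell markers summed to between 1643 and 2802 CPM in every library, and with ENT 0 were called higher or lower at day 17 and 1 lower at day 10. With library totals 5 of the 7 were higher at day 17, with RLE factors 3, and on the genes of at least 16 CPM 6. Markers of plasmacytoid dendritic cells, which also carry CD8 in the mouse, fell with ENT, all 12 of 12 at both days: at day 17 they summed to 766 to 1011 CPM with ENT against 2922 to 3535 with vehicle, and at day 10 to 769.7 to 1260.2 against 1738 to 3294. None of the 12 was at 0. Siglech, 1 of them, averaged 45.8 CPM with ENT and 446 CPM with vehicle at day 17, and 70.3 and 378 CPM at day 10. Cd8a averaged 442 CPM with ENT and 370 CPM with vehicle at day 17, and 331 and 419 CPM at day 10. In the vehicle libraries at day 17, the 7 CD8 T cell markers summed to 1643 to 1864 CPM. With RLE factors, library totals, the genes of at least 16 CPM or without ENT day 17 replicate 3, 11 of the 12 were lower at day 17. Conventional dendritic cell markers fell for 5 of 10 at day 17 and 4 of 10 at day 10. Of the other lists at day 17, those of macrophages and neutrophils had 0 higher and 2 lower of 8, of B cells 0 and 1 of 7, of natural killer cells 1 and 2 of 6, of CD4 and regulatory T cells 1 and 2 of 5, and of stroma and epithelium 0 and 3 of 8. At day 10 the same lists had 4 higher and 2 lower, 1 and 1, 1 and 2, 1 and 1, and 0 and 1. In bulk RNA, fewer cells of a type and less RNA per cell cannot be told apart. The part of these other cells in the values below was not tested. Reads of 1432 olfactory and vomeronasal receptor genes were counted as a sign of library quality. They summed to 3628 to 6901 CPM with ENT and 636 to 5290 CPM with vehicle at day 17. At day 10 they summed to 586 to 5722 CPM with ENT and 582 to 1863 CPM with vehicle. The ranges overlapped at both days, but at day 10 only through ENT replicate 4, at 586 CPM. ENT day 10 replicates 1, 2 and 3 had 5722, 3365 and 5175 CPM, above every vehicle library of that day.

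At day 17, after 10 days of ENT, the transcripts of 3 effector factors were higher than with vehicle and those of 3 memory factors were lower. Id2, Prdm1 and Tbx21 rose, Bcl6, Id3 and Bach2 fell, and Tcf7, Foxo1, Eomes and Tox did not pass the test. The test was edgeR's quasi-likelihood test over all 17414 genes at an adjusted p of 0.05, and values after ± beside a log2 fold change are standard errors. Of all genes, 18.3% were called at day 17, 5.29% higher and 13% lower. Higher genes made up 28.9% of the calls, and 48.2% when libraries were scaled by their totals alone. The share of all genes called at day 17 was 11.1% without ENT replicate 4 of that day, and 10.8% and 10.9% without its vehicle replicates 1 and 3. Against these backgrounds stand 6 of the 10 factors, 3 in each direction, and 2 of 10 (Id2 and Bcl6) whose libraries did not overlap between the groups, which held for 24.4% of all genes. The median log2 fold change was −0.12 over the 10 and −0.014 over all genes. Among the 9772 genes of at least 16 CPM, the range in which the 10 lie, 25.2% were called, 3.26% higher and 21.9% lower, and the median was −0.22, or −0.063 with library totals.

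Id2 had 363, 378, 599 and 337 CPM in the 4 ENT libraries at day 17, against 208, 245, 252 and 225 CPM with vehicle. Every ENT library lay above every vehicle library, and the highest was the shallow replicate 3. The log2 fold change was 0.83 ± 0.14 (adjusted p = 0.000543), on means of 419 ± 121 and 233 ± 19.7 CPM (SD, n = 4 each). Id2 lies at chr12:25093799-25097140 (GRCm38, minus strand).

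Prdm1 (chr10:44437177-44528501, minus strand), the gene of BLIMP1, had 166, 242, 106 and 105 CPM with ENT at day 17 and 109, 76.5, 75.4 and 65.5 CPM with vehicle. ENT replicates 1 and 2 stood well above the rest, and replicates 3 and 4 were level with the highest vehicle library, so the groups overlapped. The log2 fold change was 0.95 ± 0.22 (adjusted p = 0.0057). Tbx21 (chr11:97098071-97115331, minus strand), the gene of T-bet, had 258, 279, 197 and 164 CPM with ENT and 177, 124, 161 and 137 CPM with vehicle. Its groups overlapped through ENT replicate 4, and its log2 fold change was 0.59 ± 0.15 (adjusted p = 0.00987). The calls of Id2, Prdm1 and Tbx21 were kept under all 30 alternative settings, with log2 fold changes of 0.66 to 1.04, 0.68 to 1.25 and 0.50 to 0.82.

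Bcl6 (chr16:23965052-23988852, minus strand), the repressor that opposes BLIMP1, had 21.5, 24.2, 8.29 and 28.5 CPM with ENT at day 17 and 64.8, 41.0, 61.8 and 38.8 CPM with vehicle. Here every ENT library lay below every vehicle library, the lowest being the shallow one. Its log2 fold change was −1.23 ± 0.25 (adjusted p = 0.00263), called under all 30 alternatives (−1.35 to −0.86). Id3 (chr4:136143497-136145755, plus strand) had 5.47, 15.1, 3.32 and 22.0 CPM with ENT and 32.6, 20.9, 38.1 and 25.7 CPM with vehicle, or 2 to 65 counts and 75 to 217 counts. ENT replicate 4 lay within the vehicle range and the other 3 ENT libraries below it. Its log2 fold change was −1.25 ± 0.42 (adjusted p = 0.0438).

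Bach2 (chr4:32238804-32586108, plus strand), a repressor of effector genes, had 49.5, 78.1, 53.1 and 57.3 CPM with ENT at day 17 and 110.3, 72.0, 71.0 and 105 CPM with vehicle. ENT replicate 2 lay above the 2 lowest vehicle libraries and the other 3 below all of them. The log2 fold change was −0.57 ± 0.18 (adjusted p = 0.0371). The calls of Id3 and Bach2 were the less firm of the 6: they were kept under 9 and 10 of 30 alternatives, always below 0 (−1.77 to −0.84 for Id3, −0.72 to −0.36 for Bach2). Relative to the genes of at least 16 CPM alone, Id3 was at −1.03 (adjusted p = 0.0764) and Bach2 at −0.37 (adjusted p = 0.137). With the olfactory and vomeronasal receptor reads as a covariate, Id3 was at −1.01 (adjusted p = 0.0856) and Bach2 at −0.49 (adjusted p = 0.0818), so neither passed, while the other 4 calls did. Leaving out any of 11 libraries ended the call of Id3: vehicle day 10 replicate 1, 2 or 4, ENT day 10 replicate 1 or 2, ENT day 17 replicate 1, 2 or 3, or vehicle day 17 replicate 1, 3 or 4, with log2 fold changes of −1.34 to −0.96 and adjusted p of 0.0517 to 0.146. For Bach2 any of 9 did: vehicle day 10 replicate 1, 2 or 4, ENT day 10 replicate 2, ENT day 17 replicate 1, 3 or 4, or vehicle day 17 replicate 1 or 4, with −0.55 to −0.42 and 0.0504 to 0.162.

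Tcf7 (chr11:52252371-52283014, minus strand) had 271, 368, 406 and 338 CPM with ENT at day 17 and 363, 374, 403 and 381 CPM with vehicle, and Tox (chr4:6686353-6991557, minus strand) had 69.8, 154, 96.2 and 147 CPM with ENT and 136, 119.9, 104 and 144 CPM with vehicle. For both, the ENT libraries spread on either side of the vehicle range. The 95% intervals of their log2 fold changes were −0.41 to 0.12 and −0.50 to 0.32. Foxo1 (chr3:52268336-52353221, plus strand) had a log2 fold change of −0.23 ± 0.12 (adjusted p = 0.172), and Eomes (chr9:118478212-118486132, plus strand) one of −0.035 ± 0.26 (adjusted p = 0.94), with a 95% interval of −0.59 to 0.52. For Tcf7, Tox and Eomes the sign was not fixed: scaled by library totals they were at 7.74e-05, 0.060 and 0.12.

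**Figure D2:**
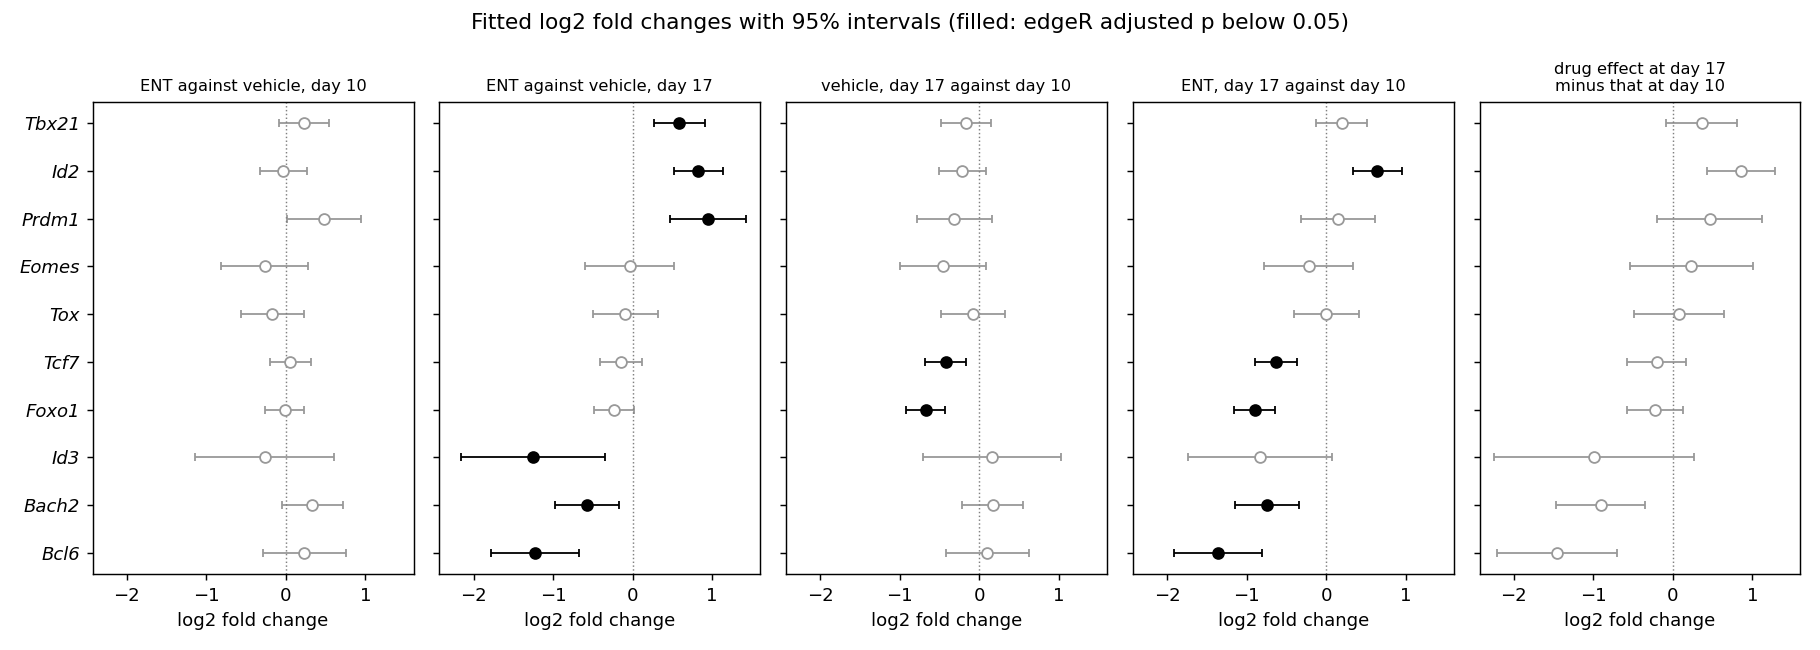
Log2 fold changes of the 10 genes (points) with 95% intervals (bars) in the 5 comparisons, filled black where the edgeR adjusted p was below 0.05. ENT against vehicle has no filled point at day 10 and 6 at day 17, 3 on each side of 0, and the difference between the days has none.

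At day 10, after 3 days of ENT, none of the 10 factors was called by edgeR, where 14.6% of all genes were, 7.63% higher and 6.93% lower. Higher genes made up 52.4% of the calls, and 76.0% with library totals. With edgeR and an unadjusted p under 0.05 there was 1 of 10, Prdm1, against 33.5% of all genes. limma-voom called 1 of 10, against 38.7% of all genes, and DESeq2 called 0, against 20.7%. The share of all genes called was 5.96%, 6.55% and 5.41% without vehicle day 10 replicate 1, 2 and 3, 5.52%, 8.08% and 5.07% without ENT day 10 replicate 1, 2 and 3, and 23.0% without ENT day 10 replicate 4. The 10 had a median log2 fold change of 0.021, and 1 of them, Tbx21, had libraries that did not overlap, as did 20.2% of all genes.

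Prdm1 had 151, 116, 148 and 156 CPM with ENT at day 10 and 93.8, 95.9, 120.2 and 98.6 CPM with vehicle. Of the 4 ENT libraries, 3 lay above all vehicle libraries and replicate 2 lay just below the highest. The log2 fold change was 0.48 ± 0.21 (adjusted p = 0.123), and it passed under 6 of 30 alternatives, among them library totals (0.65, adjusted p = 0.0426) and the genes of at least 16 CPM (0.65, adjusted p = 0.0429). Tbx21 had 188, 195, 186 and 222 CPM with ENT and 167, 185, 171 and 154 CPM with vehicle. Every ENT library exceeded every vehicle library, by a narrow margin, and the log2 fold change was 0.23 ± 0.15 (adjusted p = 0.275), with a call under 3 of 30 alternatives. On the memory side, Bach2 was at 0.34 ± 0.18 (adjusted p = 0.189) and Bcl6 at 0.23 ± 0.24 (adjusted p = 0.5). Tcf7, Foxo1 and Id2 were at 0.056 ± 0.12, −0.014 ± 0.11 and −0.030 ± 0.14, with 95% intervals of −0.20 to 0.32, −0.26 to 0.23 and −0.33 to 0.27. Tox, Eomes and Id3 were at −0.17 ± 0.18, −0.27 ± 0.25 and −0.26 ± 0.40.

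Whether the effect of ENT differed between the days was tested on the difference of the 2 effects, day 17 minus day 10. None of the 10 passed with edgeR, where 0.471% of all genes did, and 3 had an unadjusted p under 0.05, against 13% of all genes: Id2, Bcl6 and Bach2. Id2 was the nearest at 0.86 ± 0.20 (adjusted p = 0.0602), followed by Bcl6 at −1.46 ± 0.35 (adjusted p = 0.0733) and Bach2 at −0.91 ± 0.25 (adjusted p = 0.121). DESeq2 called all 3, at adjusted p of 0.00194, 0.00191 and 0.0306, where it called 3.23% of all genes. limma-voom called Bcl6 alone (adjusted p = 0.0321), where it called 1.4%. Id2 was also called without ENT day 17 replicate 3 (0.66, adjusted p = 0.0432) or replicate 4 (0.94, adjusted p = 0.0318), and on the genes of at least 16 CPM, of which 3.57% were called, both Id2 (adjusted p = 0.0450) and Bcl6 (adjusted p = 0.0238) passed. The difference for Prdm1 was 0.46 ± 0.30 and for Tbx21 0.36 ± 0.21, with intervals that include 0. The share of all genes called fell to 0.0774% without vehicle day 10 replicate 3, and lay at 0.0995%, 0.232% and 0.193% without vehicle day 10 replicate 1, 2 and 4, at 0.117%, 0.0892% and 0.277% without ENT day 10 replicate 1, 3 and 4, at 0.0897% without ENT day 17 replicate 1 and at 0.166% without vehicle day 17 replicate 3.

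Between the days, Tcf7 and Foxo1, which keep T cells quiescent and able to renew, were lower at day 17 in both treatments, while Bach2 and Bcl6 were lower and Id2 higher in the ENT comparison. With ENT, 5 of 10 factors were called between day 17 and day 10, where 13.7% of all genes were: 1 higher (3.26% of all genes) and 4 lower (10.5%). Higher genes made up 23.7% of the calls, or 43.3% with library totals. All 5 had libraries that did not overlap, against 21.5% of all genes, and all 5 were called in each of 27 alternatives. With vehicle, 2 of 10 were called, where 5.52% of all genes were, both lower (3.63%), and 3 had libraries that did not overlap, against 13.6%. Higher genes made up 34.2% of the vehicle calls, or 59.4% with library totals. Among the genes of at least 16 CPM, 21.5% were called between the days with ENT, 3.39% higher and 18.2% lower. With vehicle, 7.65% of them were called, 1.26% higher and 6.4% lower.

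Foxo1 had 194, 204, 202 and 160.1 CPM with ENT at day 17 and 341, 343, 366 and 359 CPM with ENT at day 10. With vehicle it had 265, 178, 209 and 237 CPM at day 17 and 342, 379, 385 and 317 CPM at day 10. Both treatments were lower at day 17 without overlap. The log2 fold changes were −0.90 ± 0.12 (adjusted p = 7.86e-05) with ENT and −0.68 ± 0.11 (adjusted p = 0.00396) with vehicle, and the vehicle change was called in all 27 alternatives too. Tcf7 had 539, 589, 532 and 459.7 CPM with ENT at day 10 and 543, 584, 481 and 429.6 CPM with vehicle at day 10, each set above its own day 17 libraries. Its log2 fold changes between the days were −0.63 ± 0.12 (adjusted p = 0.00207) with ENT and −0.42 ± 0.12 (adjusted p = 0.0463) with vehicle. The vehicle call held in 12 of 27 alternatives: it was lost with library totals (−0.28, adjusted p = 0.154), on the genes of at least 16 CPM (−0.30, adjusted p = 0.200), and without vehicle day 10 replicate 1, 2 or 3, ENT day 10 replicate 1 or 3, or vehicle day 17 replicate 2, 3 or 4 (−0.46 to −0.36, adjusted p of 0.0583 to 0.116).

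Bcl6 had 49.1, 69.2, 48.4 and 59.7 CPM with ENT at day 10, and its 4 ENT libraries at day 17 all lay below these, at −1.36 ± 0.25 on the log2 scale (adjusted p = 0.00148). Bach2 had 97.8, 116, 88.8 and 99.5 CPM with ENT at day 10, again all above day 17, with −0.74 ± 0.18 (adjusted p = 0.0114). Id2 had 295, 234, 266 and 260.2 CPM with ENT at day 10, all below day 17, with 0.65 ± 0.14 (adjusted p = 0.00469). Vehicle gave 0.10 ± 0.24, 0.17 ± 0.18 and −0.21 ± 0.14 for these genes, none called, although the vehicle libraries of Id2 at day 17 all lay below those at day 10. The drug and time comparisons share libraries, so these values are not separate evidence. Eomes with vehicle was at −0.45 ± 0.25 (adjusted p = 0.255) and was called without vehicle day 17 replicate 1 (−0.78, adjusted p = 0.0341). Prdm1 and Tbx21 were not called over time in either treatment, at 0.15 ± 0.21 and 0.19 ± 0.15 with ENT and −0.32 ± 0.22 and −0.17 ± 0.15 with vehicle. Tox had a log2 fold change of 0.0023 ± 0.19 with ENT and −0.078 ± 0.18 with vehicle, and Id3 one of −0.83 ± 0.42 and 0.16 ± 0.40. The share of all genes called with vehicle was 2.7%, 2.03%, 1.17% and 9.35% without vehicle day 10 replicate 1, 2, 3 and 4, 14.9%, 1.89% and 3.49% without vehicle day 17 replicate 1, 2 and 3, and 10.1% without ENT day 10 replicate 4.

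A ratio of the raw counts of 2 factors within a library does not depend on how libraries are scaled to each other. The log2 values used here hold a prior count of 2, scaled to library size, which shrinks ratios of low counts. For 5 such ratios, each in 4 comparisons, exact two-sided permutation tests of 4 libraries against 4 were run, whose smallest p is 0.0286. Prdm1 to Bcl6, an index of the BLIMP1 and BCL6 balance, was 2.91, 3.29, 3.59 and 1.86 on the log2 scale in the ENT libraries at day 17 and 0.74, 0.89, 0.29 and 0.75 in the vehicle libraries. Every ENT library lay above every vehicle library, by a mean of 2.25 (exact p = 0.0286). Id2 to Id3 was 5.91, 4.60, 7.27 and 3.90 with ENT and 2.65, 3.51, 2.71 and 3.10 with vehicle, a difference of 2.43 without overlap (exact p = 0.0286). The highest value rests on the 2 Id3 counts of the shallow library and was 7.44 with a prior count of 0.5. The other 3 ENT libraries also lay above all vehicle libraries. Prdm1 to Bach2 was 1.73, 1.63, 0.99 and 0.87 with ENT and −0.020, 0.087, 0.086 and −0.68 with vehicle, again without overlap, a difference of 1.44 (exact p = 0.0286). Each of these ratios sets a factor called higher at day 17 over one called lower in the same libraries. They restate those calls and are not separate evidence. Adjusted over the 20 tests, the p-values of these ratios were 0.0953, and none passed 0.05. With this smallest p, a ratio could pass only if most of the 20 tests reached it, so no conclusion is drawn from the adjusted values.

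Tbx21 to Eomes was 1.33, 0.84, 1.36 and 1.14 with ENT at day 10 and 0.60, 0.50, 0.73 and 0.83 with vehicle, without overlap (difference 0.50, exact p = 0.0286, adjusted 0.0953). At day 17 it was 2.02, 1.29, 2.24 and 1.11 with ENT and 0.57, 1.09, 1.13 and 1.18 with vehicle, with overlap (difference 0.67, exact p = 0.0857, adjusted 0.175). Tox to Tcf7 differed by −0.021 at day 17 (exact p = 0.971) and by −0.24 at day 10 (exact p = 0.286). With ENT, Prdm1 to Bcl6 was higher at day 17 than at day 10 by 1.58 and Prdm1 to Bach2 by 0.80, both without overlap (exact p = 0.0286, adjusted 0.0953). Bcl6 and Bach2 were already called lower in that comparison, so these ratios are not separate evidence either. With vehicle the same ratios moved by −0.41 and −0.49 (exact p = 0.114 each).

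**Figure D3:**
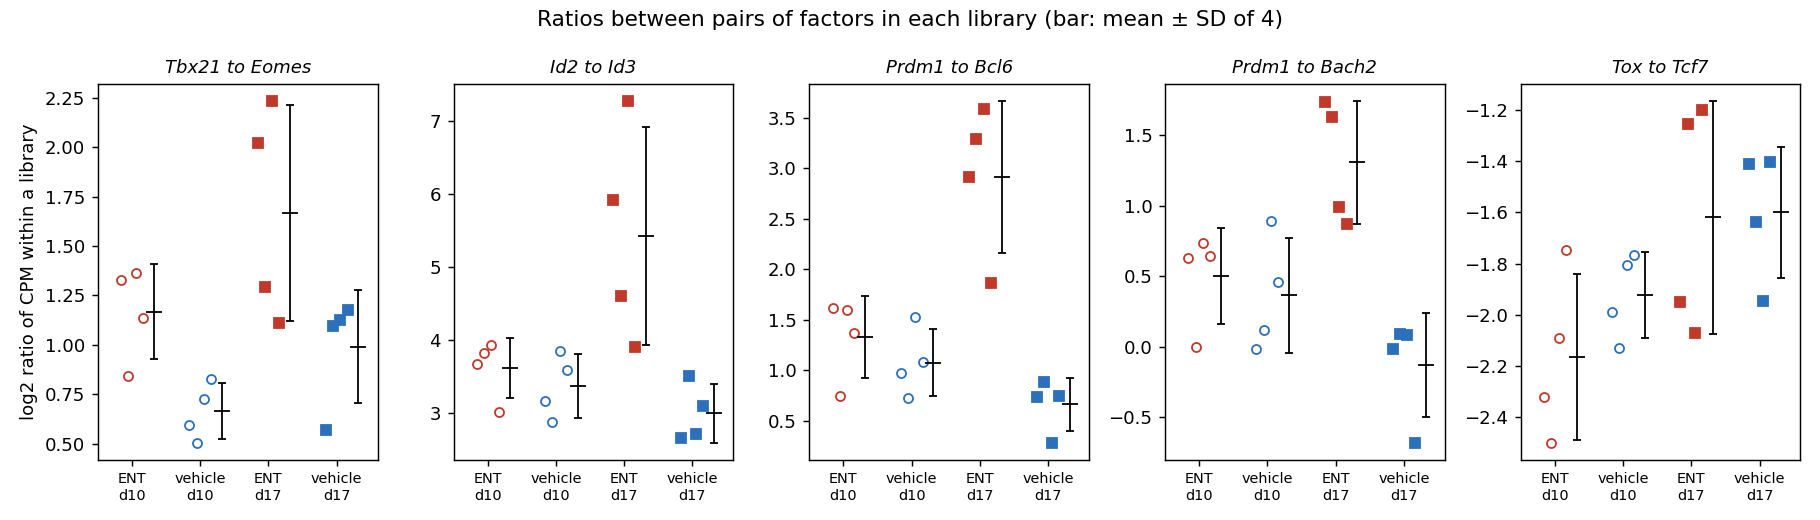
Log2 ratios of CPM within each library for 5 pairs of factors, with a point for each library and a black bar for the mean ± SD of 4. At day 17 Prdm1 to Bcl6 averages 2.91 with ENT and 0.67 with vehicle, Prdm1 to Bach2 1.30 and −0.13, and Id2 to Id3 5.42 and 2.99.

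Genes linked to these factors were read from 4 lists, by counts and medians only. Beside the counts at day 17 stand 5.29% of all genes called higher and 13% lower. Among the genes of at least 16 CPM these shares were 3.26% and 21.9%. Of 15 effector genes linked to T-bet and EOMES, 10 were higher and 2 lower with ENT at day 17, with a median log2 fold change of 0.72. Perforin (Prf1) was at 1.93 ± 0.15, granzyme B (Gzmb) at 2.31 ± 0.26, the chemokine Ccl3 at 1.92 ± 0.25 and granzyme A (Gzma, also on the natural killer cell list) at 1.26 ± 0.19. The 2 lower ones, named after their values were seen, were Zeb2, a repressor that acts with T-bet in effector cells, at −1.15 ± 0.21 (adjusted p = 0.000961) and the chemokine receptor Cxcr3 at −0.41 ± 0.093 (adjusted p = 0.0049). Zeb2 averaged 69.5 CPM with ENT and 157 CPM with vehicle. The part of dendritic cells in these 2 lower values was not tested. Of 11 receptors and markers linked to TOX, 7 were higher and 0 lower (median 0.61), while Tox itself was not called. They included Havcr2 (TIM-3) at 2.66 ± 0.20, the ectonucleotidase Entpd1 (CD39) at 1.53 ± 0.24, Tnfrsf9 (4-1BB) at 0.89 ± 0.12 and Ctla4 at 0.67 ± 0.12. On each of these 2 lists the higher calls numbered 10 or 11 and 7 or 8 under every scaling tried and without the shallow library.

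Of 13 memory genes linked to TCF1 and FOXO1, 0 were higher and 7 lower with ENT at day 17 (median −0.41), although neither Tcf7 nor Foxo1 was called. The survival factor Bcl2 was at −0.82 ± 0.17, and the homing receptors Ccr7 and S1pr1 at −0.59 ± 0.14 and −0.59 ± 0.12. That count was 4 lower with library totals or RLE factors and 2 on the genes of at least 16 CPM, where Ccr7 and S1pr1 lost their calls (adjusted p = 0.102 and 0.0654). Of 31 other factors of CD8 T cell fate, 4 were higher and 11 lower (median −0.35), or 6 and 9 with library totals. The lower ones included Klf3 at −1.24 ± 0.17, Runx1 at −1.78 ± 0.25, Foxp1, a factor of quiescence, at −0.77 ± 0.11 and the E protein gene Tcf12 at −0.75 ± 0.12. The 4 higher ones, also named after their values were seen, were the TOX relative Tox2 at 2.74 ± 0.76, on low means of 6.93 CPM with ENT and 1.12 CPM with vehicle, Zbtb32 at 1.11 ± 0.32, Ikzf3 (Aiolos) at 0.50 ± 0.15 and the hypoxia factor Hif1a at 0.45 ± 0.097. Klf2, Lef1 and Satb1 stand on both of these lists.

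At day 10 the same lists had fewer calls. Of all genes, 7.63% were called higher and 6.93% lower at that day, and of the genes of at least 16 CPM, 3.16% and 11.9%. Of the effector list, 2 were higher (Gzma at 0.77 ± 0.19 and Klrg1, a marker of short-lived effectors, at 1.05 ± 0.34) and 1 lower, the factor Zeb2 at −0.90 ± 0.20. Cd38, an NAD-consuming enzyme, at −0.66 ± 0.14, was the 1 call among the 11 linked to TOX. Of the 13 genes of the memory list, 1 was higher, Cxcr5 at 1.88 ± 0.38, and 1 was lower. Of the other fate factors 0 were higher and 4 lower: Zeb2 again, Foxp1 at −0.41 ± 0.11, Myb at −0.92 ± 0.26 and Tcf12 at −0.39 ± 0.12. With library totals that count was 1 higher and 1 lower, and Foxp1, Myb and Tcf12 were not called (adjusted p = 0.101, 0.0600 and 0.215).

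**Figure D4:**
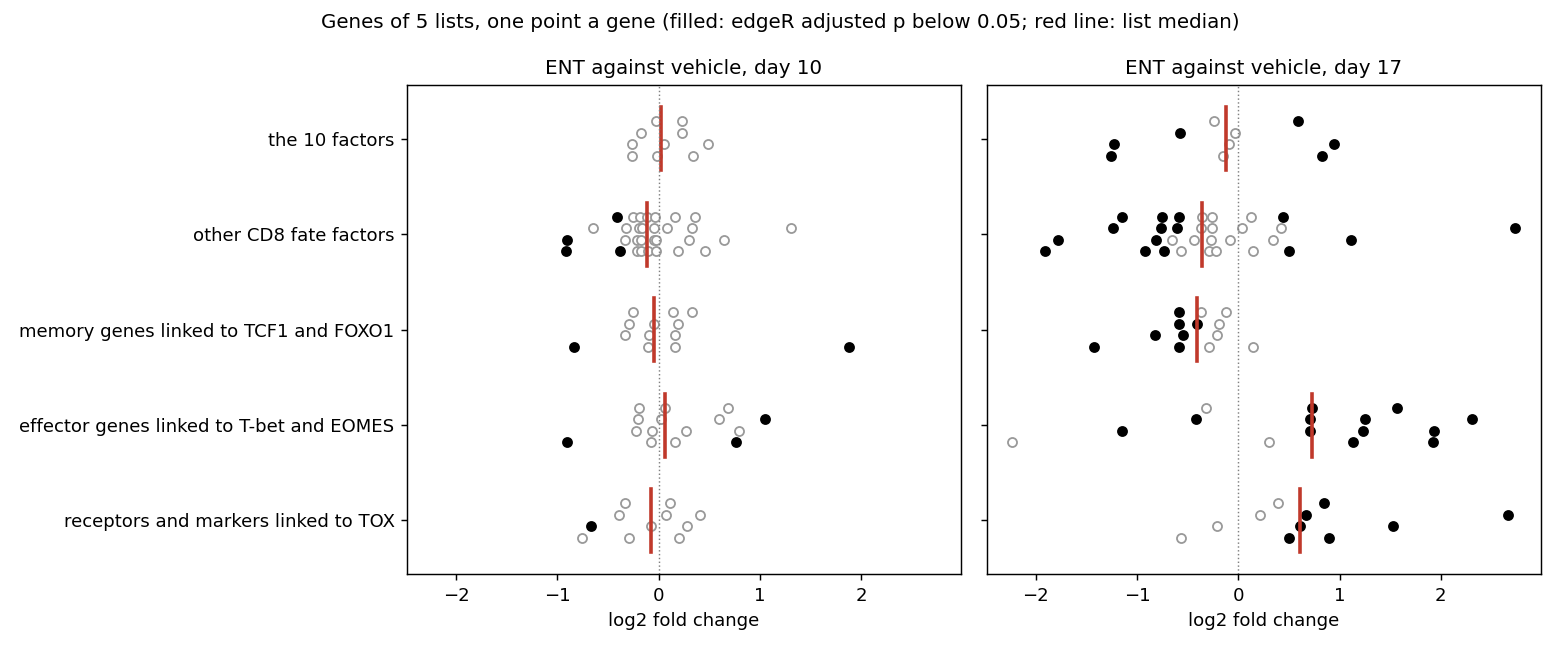
Log2 fold changes of ENT against vehicle at day 10 (left) and day 17 (right) for the 10 factors and 4 lists of linked genes, with a point for each gene, filled where the edgeR adjusted p was below 0.05, and a red line at each list's median. The medians lie between −0.12 and 0.058 at day 10, and at day 17 at −0.12 for the 10 factors, −0.35 and −0.41 for the other factors and the memory genes, and 0.72 and 0.61 for the effector genes and the genes linked to TOX.

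For each factor called in any comparison, the genes of most similar profile were found by the root mean square (RMS) distance of centred log2 CPM over the 16 libraries, among 9433 genes of at least 16 CPM. The nearest to Foxo1 were Pde4d (0.11), Madd (0.13) and Bcl11b (0.13), and to Tcf7 Socs3 (0.11), Tgtp1 (0.13) and Rnf145 (0.13). Id2 lay nearest Ctsd (0.12), Ccl4 (0.14) and Nkg7 (0.15), and Tbx21 nearest Slc2a3, Glrx and Tigit (0.17 to 0.18). Prdm1 lay nearest Sytl3 (0.24), Tbx21 itself (0.25) and Dgkh (0.26). Bach2 lay nearest Mfhas1, Pkp4 and Zmym5 (0.19 to 0.20), Bcl6 nearest Cry2 (0.24), Cbx7 (0.24) and Thap3 (0.29), and Id3, the gene of fewest counts, nearest Cdkn1b (0.40), Lrrc8a (0.40) and Tmem191c (0.43). The median distance over all genes ran from 0.40 for Tcf7 to 0.82 for Id3, and libraries of 1 group and of like depth enter every distance. A gene of flat profile would lie at about the factor's own SD of log2 CPM over the libraries. That SD was 0.30 for Tbx21, 0.32 for Tcf7, 0.37 for Id2 and 0.38 for Bach2. It was 0.44 for Foxo1, 0.48 for Prdm1, 0.76 for Bcl6 and 0.90 for Id3.

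The libraries do not mark strand, so reads of an antisense gene can count toward a factor. Exons of an opposite-strand gene overlapped 7.78% of the exon bases of Foxo1, 5.4% of Bach2, 3.42% of Tox, 2.84% of Eomes and 0.313% of Bcl6, and no annotated gene overlapped exons of Tcf7, Tbx21, Id2, Id3 or Prdm1.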

How the data were processed

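RNA of tumour cells sorted as CD8 T cells was measured in 16 libraries, made with SMART-seq v4 and Nextera XT per the labels' protocols. The values are raw counts of reads per gene, deposited by the authors under Entrez identifiers and symbols. The submitters' processing notes name STAR as a tool and mm10 as the build. The counting program is not given in the sources used here. Whether PCR copies were removed before counting is not given either, so counting error may understate the error. No column of another sample was present.

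Counts were scaled by TMM and tested in edgeR 4.0.16 (R 4.3.3) with glmQLFit and glmQLFTest over all 16 libraries, 1 mean per group and 12 residual degrees of freedom, on the 17414 of 24028 genes that filterByExpr kept at a minimum count of 10. P-values were adjusted over those genes (Benjamini-Hochberg, threshold 0.05). The scripts were tested on simulated data. Alternatives were DESeq2 1.42.0, limma 3.58.1 (voom with quality weights), RLE factors, library totals, no filter, a minimum count of 50, only the groups compared, the replicate number as a block, and each library left out. Added after the data were seen were a covariate of olfactory receptor reads and a fit on the genes of at least 16 CPM alone. The 10 genes, the lists and the ratios were chosen with earlier results of these data known. All 10 genes are named throughout, and from each list up to 4 genes of smallest p among those called in a drug comparison. Up to 3 genes of nearest profile were named per called factor. Of the memory list, 1 gene that this rule would name is not reported here.

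Replicate numbers recur in each group. They were not taken to pair the libraries. No 2 libraries of a group agreed within sampling noise (chi-square per degree of freedom of at least 3.28). Scaled CPM was divided by exon length (GENCODE, GRCm38) for RPKM. Upstream sequences came from a RefSeq table of the same build.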

Additional observations from a re-analysis of the deposited data

Results flagged for a closer look

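In groups of 4 libraries, a library was singled out when its gap to the nearest of the others, as a share of the group's whole range, exceeded Dixon's critical value, which chance does for about 1 group in 20. Of 60 groups, 40 of single factors and 20 of ratios, 3 were singled out, all of ratios. The log2 ratio of Tbx21 to Eomes was 0.566 in vehicle day 17 replicate 1, where the other 3 lay between 1.09 and 1.18. That of Prdm1 to Bach2 was 0 in ENT day 10 replicate 2, where the others lay between 0.627 and 0.733. The same ratio was −0.680 in vehicle day 17 replicate 4, where the others lay between −0.0197 and 0.0868.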

How the results depend on the processing

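Of 1430 fold changes of the factors under an alternative, 1244 kept direction and side of the threshold, 56 lost a call, 28 gained one, and 102 changed sign, none of them called in either fit and the largest 0.30 in size. The labels name no pairs. In deviations between ENT and vehicle at day 10, libraries of equal number correlated at 0.259, 0.26, 0.24 and 0.27 over the genes of at least 16 CPM. There, number 3 of ENT matched number 1 best. Over all genes, which adds genes of low counts, the values were 0.18, 0.0329, 0.114 and 0.0572. At day 17 they were 0.143, −0.387, 0.15 and −0.0753 over the genes of at least 16 CPM. These correlations cannot decide whether equal numbers are pairs. The numbers were not taken as pairs, and the blocks are given as alternatives. A single replicate block over all groups changed no call of a factor. The block within day ended the day 17 calls of Id3 (−1.42, adjusted p = 0.0758) and Bach2 (−0.59, adjusted p = 0.055), leaving 4 of 6. On the 16 CPM genes it kept the day 10 call of Prdm1 (0.65, adjusted p = 0.0241) and ended those of Tbx21 at day 10 (0.39, adjusted p = 0.0793) and of Id2 (0.89, adjusted p = 0.0587) and Bcl6 (−1.41, adjusted p = 0.0646) in the difference. Low counts limit Id3 and Bcl6 in ENT day 17 replicate 3. The causes of the changes were not tested. The 16 CPM genes are those of at least that mean level, fitted alone. That fit and the receptor covariate were chosen after seeing the data.

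The number of genes called for ENT against vehicle at day 10 was 2534, 910 to 4151 with 1 library left out, and 6746 with limma-voom, 1332 with a minimum count of 50, 1458 with only the groups compared, 1561 with the replicate block, 1160 with the block within day, 1524 with the receptor covariate, 852 with the genes of at least 16 CPM, 612 with the 16 CPM genes and the block within day, 827 with the receptor covariate and the block within day and 870 with the 16 CPM genes without ENT day 17 replicate 3. The number of genes called for ENT against vehicle at day 17 was 3190, 1946 to 3658 with 1 library left out, and 4899 with limma-voom, 2050 with the 16 CPM genes and the block within day, 1987 with the receptor covariate and the block within day and 1917 with the 16 CPM genes without ENT day 17 replicate 3. The number of genes called for vehicle at day 17 against day 10 was 961, 212 to 2699 with 1 library left out, and 2116 with DESeq2, 2804 with limma-voom, 490 with library totals, 636 with only the groups compared, 512 with the genes of at least 16 CPM and 523 with the 16 CPM genes without ENT day 17 replicate 3. The number of genes called for ENT at day 17 against day 10 was 2393, 1748 to 2826 with 1 library left out, and 3934 with limma-voom. The number of genes called for the difference of the drug effects was 82, 14 to 103 with 1 library left out, and 563 with DESeq2, 244 with limma-voom, 130 with RLE factors, 144 with library totals, 34 with no filter, 285 with a minimum count of 50, 39 with the replicate block, 34 with the block within day, 187 with the receptor covariate, 349 with the genes of at least 16 CPM, 184 with the 16 CPM genes and the block within day and 252 with the 16 CPM genes without ENT day 17 replicate 3.

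Of the 10 factors 0 were called for ENT against vehicle at day 10, 0 in every fit with 1 library left out, and 1 with limma-voom, library totals and the 16 CPM genes and the block within day, and 2 with only the groups compared, the genes of at least 16 CPM and the 16 CPM genes without ENT day 17 replicate 3. Of the 10 factors 6 were called for ENT against vehicle at day 17, 4 to 6 with 1 library left out. Of the 10 factors 2 were called for vehicle at day 17 against day 10, 1 to 3 with 1 library left out, and 1 with RLE factors, library totals, a minimum count of 50, only the groups compared, the receptor covariate, the genes of at least 16 CPM and the 16 CPM genes without ENT day 17 replicate 3. Of the 10 factors 5 were called for ENT at day 17 against day 10, 5 in every fit with 1 library left out. Of the 10 factors 0 were called for the difference of the drug effects, 0 to 1 with 1 library left out, and 1 with limma-voom and the receptor covariate and the block within day, and 2 with a minimum count of 50, the receptor covariate, the genes of at least 16 CPM and the 16 CPM genes without ENT day 17 replicate 3, and 3 with DESeq2.

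Values of the opposite sign, each beside its main log2 fold change, were these. Bach2 for vehicle at day 17 against day 10 (0.17) was at −0.0062 with limma-voom. Eomes for ENT against vehicle at day 10 (−0.27) was at 0.014 with the receptor covariate and 0.048 with the receptor covariate and the block within day. Eomes for ENT against vehicle at day 17 (−0.035) was at 0.058 with DESeq2, 0.026 with limma-voom, 0.076 with RLE factors, 0.12 with library totals, 0.15 with a minimum count of 50, 0.015 with only the groups compared, 0.27 with the receptor covariate, 0.19 with the genes of at least 16 CPM, 0.16 with the 16 CPM genes and the block within day, 0.26 with the receptor covariate and the block within day and 0.30 with the 16 CPM genes without ENT day 17 replicate 3. Eomes for ENT at day 17 against day 10 (−0.22) was at 0.057 with the 16 CPM genes without ENT day 17 replicate 3. Foxo1 for ENT against vehicle at day 10 (−0.014) was at 0.040 with DESeq2, 0.040 with RLE factors, 0.15 with library totals, 0.11 with a minimum count of 50, 0.086 with only the groups compared, 0.058 with the receptor covariate, 0.15 with the genes of at least 16 CPM, 0.16 with the 16 CPM genes and the block within day, 0.078 with the receptor covariate and the block within day and 0.15 with the 16 CPM genes without ENT day 17 replicate 3. Id2 for ENT against vehicle at day 10 (−0.030) was at 0.026 with DESeq2, 0.026 with RLE factors, 0.13 with library totals, 0.099 with a minimum count of 50, 0.071 with only the groups compared, 0.14 with the genes of at least 16 CPM, 0.13 with the 16 CPM genes and the block within day and 0.14 with the 16 CPM genes without ENT day 17 replicate 3. Id3 for ENT against vehicle at day 10 (−0.26) was at 0.23 with the receptor covariate and the block within day. Tcf7 for ENT against vehicle at day 17 (−0.15) was at 7.74e-05 with library totals, 0.024 with a minimum count of 50, 0.065 with the genes of at least 16 CPM and 0.058 with the 16 CPM genes and the block within day. Tox for vehicle at day 17 against day 10 (−0.078) was at 0.063 with library totals, 0.0087 with a minimum count of 50, 0.046 with the genes of at least 16 CPM and 0.046 with the 16 CPM genes without ENT day 17 replicate 3. Tox for ENT against vehicle at day 10 (−0.17) was at 0.043 with the receptor covariate and the block within day. Tox for ENT against vehicle at day 17 (−0.089) was at 0.0075 with DESeq2, 0.014 with RLE factors, 0.060 with library totals, 0.078 with a minimum count of 50, 0.12 with the genes of at least 16 CPM, 0.035 with the 16 CPM genes and the block within day, 0.033 with the receptor covariate and the block within day and 0.15 with the 16 CPM genes without ENT day 17 replicate 3. Tox for ENT at day 17 against day 10 (0.0023) was at −0.25 with limma-voom, −0.034 with no filter and −0.026 with the replicate block. Tox for the difference of the drug effects (0.081) was at −0.067 with limma-voom and −0.010 with the receptor covariate and the block within day. With single libraries left out, Bcl6 for vehicle at day 17 against day 10 ran from −0.061 to 0.19, Eomes for ENT against vehicle at day 17 ran from −0.28 to 0.30, Eomes for the difference of the drug effects ran from −0.046 to 0.54, Foxo1 for ENT against vehicle at day 10 ran from −0.039 to 0.060, Id2 for ENT against vehicle at day 10 ran from −0.090 to 0.071, Prdm1 for ENT at day 17 against day 10 ran from −0.18 to 0.28, Tox for ENT against vehicle at day 17 ran from −0.23 to 0.13, Tox for ENT at day 17 against day 10 ran from −0.19 to 0.17, Tox for the difference of the drug effects ran from −0.094 to 0.27 and the log2 ratio of Tox to Tcf7 for ENT against vehicle at day 17 ran from −0.16 to 0.13.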
